A study of Homo sapiens with 6 samples.

Results

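The lysosomal genes examined in NB4 cells were 68 of the 23368 gene symbols counted: 28 hydrolases, 3 luminal cofactor proteins without an enzyme activity of the same kind, 8 membrane proteins, 2 transcriptional regulators and 27 symbols of the proton pump. The hydrolases, cofactors, membrane proteins and regulators came from a list of 41 symbols, all of which were found, and the pump was taken as every symbol that begins with ATP6V or ATP6AP. NB4 is a human acute promyelocytic leukemia cell line, and its cells were either left not treated or exposed for 24 h in vitro to 10 µM maltonis, a synthetic compound derived from maltol. Each condition had 3 libraries made with a stranded total RNA kit, described by the study as biological triplicates. The controls carry no label of a vehicle, although the compound was stored in water, and a single cell line, dose and time limit what the comparison covers.

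Lysosomes are acidic organelles in which hydrolases break down proteins, glycans, lipids and nucleic acids delivered by endocytosis and autophagy. The vacuolar proton pump (V-ATPase) acidifies them: its cytosolic V1 part hydrolyzes ATP and its membrane V0 part carries protons. Many lysosomal genes are activated by the MiT/TFE transcription factors (TFEB, TFE3, MITF and TFEC), which bind palindromic E-box sequences of the CLEAR type, and in promyelocytes lysosomal hydrolases are also part of the granule content.

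Libraries held between 18492154 and 38205483 counts, so that 3 counts, taken as the floor, corresponded to between 0.0828 and 0.160 CPM (counts scaled to a common library size). This floor reflects the error of counting alone. All 11 markers fixed for promyelocytic cells lay above 1 CPM in both groups, with MPO highest. Their summed level was between 14785 and 17243 CPM without and between 9149 and 9754 CPM with maltonis, most of it MPO. Of the 11 markers, 2 were higher (CTSG and AZU1, at 2.34 and 0.48 on the log2 scale) and 6 lower. These are 18.2% and 54.5%, against 31.9% and 32.1% of all genes tested. ELANE, the promyelocyte granule elastase, which was looked up after its values were seen, had 3, 6 and 2 counts in not treated and 406, 565 and 409 counts in maltonis-treated libraries. Summed markers went from between 49.5 and 52.4 to between 18.2 and 19.0 CPM for T cells, mostly CD3D, from between 2.44 and 3.62 to between 1.81 and 2.06 CPM for B cells, and from between 19.6 and 21.5 to between 29.1 and 32.3 CPM for erythroid cells and megakaryocytes, mostly ITGA2B, with HBB, PF4 and GP9 at 0. Their part in the results was not tested. Codes in the names of the deposited libraries part replicate 1 (batch A) from replicates 2 and 3 (batch B) in both groups, and what the codes stand for is not stated.

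Promoter windows were available from RefSeq for 49 of the 68 genes, from 250 bases before to 50 bases after the gene start. They are shown for 6 genes that carry the E-box CACGTG and whose transcripts moved in opposite directions: MCOLN1, GAA, NEU1 and LAMP1 rose, while ATP6V1G1 and ATP6V0E2 fell. Capitals mark the letters CACGTG, a palindrome that reads the same on both strands, and each sequence runs 5′ to 3′ along the gene.
MCOLN1 (GRCh38.p14, chr19:7522374-7522673, plus strand): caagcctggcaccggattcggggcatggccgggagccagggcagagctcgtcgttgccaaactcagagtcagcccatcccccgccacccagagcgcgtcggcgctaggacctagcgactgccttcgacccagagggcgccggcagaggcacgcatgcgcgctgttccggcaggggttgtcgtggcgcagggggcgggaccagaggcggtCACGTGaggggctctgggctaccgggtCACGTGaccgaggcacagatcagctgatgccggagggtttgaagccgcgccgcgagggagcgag
GAA (GRCh38.p14, chr17:80101331-80101630, plus strand): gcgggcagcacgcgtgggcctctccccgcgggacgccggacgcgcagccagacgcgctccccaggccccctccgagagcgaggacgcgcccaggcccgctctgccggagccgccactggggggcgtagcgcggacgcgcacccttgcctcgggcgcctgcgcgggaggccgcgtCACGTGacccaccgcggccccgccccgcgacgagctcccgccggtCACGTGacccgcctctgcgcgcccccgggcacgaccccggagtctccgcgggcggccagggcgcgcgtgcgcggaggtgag
NEU1 (GRCh38.p14, chr6:31862772-31863071, minus strand): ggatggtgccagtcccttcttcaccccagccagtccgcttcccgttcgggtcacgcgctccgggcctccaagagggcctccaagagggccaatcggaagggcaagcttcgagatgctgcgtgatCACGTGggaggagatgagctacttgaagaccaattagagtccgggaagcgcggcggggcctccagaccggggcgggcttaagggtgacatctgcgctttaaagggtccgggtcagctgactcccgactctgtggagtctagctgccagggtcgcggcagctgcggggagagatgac
LAMP1 (GRCh38.p14, chr13:113296989-113297288, plus strand): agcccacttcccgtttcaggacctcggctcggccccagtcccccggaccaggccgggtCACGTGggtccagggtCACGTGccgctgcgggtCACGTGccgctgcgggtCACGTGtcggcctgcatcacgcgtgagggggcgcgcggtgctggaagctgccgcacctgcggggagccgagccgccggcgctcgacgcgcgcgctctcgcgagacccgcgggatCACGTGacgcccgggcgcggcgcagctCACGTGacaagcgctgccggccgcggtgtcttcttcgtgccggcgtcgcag
ATP6V1G1 (GRCh38.p14, chr9:114587519-114587818, plus strand): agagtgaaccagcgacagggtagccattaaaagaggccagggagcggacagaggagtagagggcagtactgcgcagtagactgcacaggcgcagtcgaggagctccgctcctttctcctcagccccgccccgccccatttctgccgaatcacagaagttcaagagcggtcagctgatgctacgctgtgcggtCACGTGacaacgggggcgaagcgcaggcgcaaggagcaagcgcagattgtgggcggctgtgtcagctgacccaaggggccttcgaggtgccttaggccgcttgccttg
ATP6V0E2 (GRCh38.p14, chr7:149872718-149873017, plus strand): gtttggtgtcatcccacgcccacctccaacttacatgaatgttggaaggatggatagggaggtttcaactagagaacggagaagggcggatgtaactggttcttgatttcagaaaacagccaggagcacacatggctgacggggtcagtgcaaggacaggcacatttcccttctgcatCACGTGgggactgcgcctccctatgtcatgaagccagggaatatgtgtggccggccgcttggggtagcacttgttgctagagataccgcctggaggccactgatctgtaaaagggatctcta

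The E-box was present in 12 of the 49 promoters (24.5%), against 10.3% of 9129 promoters of tested genes and 7.43% of all 27305 windows. The longer palindrome TCACGTGA, which contains the E-box, was found in 7 promoters (14.3%) against 2% of those of tested genes and 1.04% of all windows, and the longest CLEAR form, which adds a G before and a C after it, in 4 (8.16%) against 0.8% and 0.381%. LAMP1 held the most copies, 6 E-boxes, the last of which spans the start. GAA, GALNS, MCOLN1 and ATP6V1G1 held the longest form. These shares describe the sequences and do not depend on the treatment. By direction of the RNA, and with no test, the E-box was found in 6 of 27 promoters of genes that rose. It was found in 2 of 8 of genes that fell and 4 of 10 of genes not past the threshold. Over all tested genes with a promoter, the shares were 10.2%, 9.97% and 10.7% in the same order. The longer TCACGTGA was found in 4, 1 and 2 of these lysosomal promoters, against 2.39%, 1.14% and 2.49% over all tested genes. For the longest form the numbers were 2, 1 and 1, against 1.13%, 0.391% and 0.902%. Neither TFEB nor TFE3 held these letters in its window. A match is a string of letters and not a measured binding site.

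Maltonis was followed by higher transcript levels of most lysosomal genes. Of the 68 genes, 61 passed the filter on low counts, and 38 were higher and 9 lower at a false discovery rate (FDR) under 0.01 in the quasi-likelihood test of edgeR, adjusted over 13209 genes by the Benjamini-Hochberg method. Over all genes tested, 31.9% were higher and 32.1% lower by this rule. The other 14 genes were not past it. The median log2 fold change was 0.54, against 0.01 over all genes tested. With the study's further limit on the size of the fold change, 8 genes were higher and 2 lower, against 9.96% and 10.4% of all genes. The 3 libraries of one group lay on one side of the other group for 53 of the 61 genes, against 76.6% over all genes. This held for all 47 called genes, so for a single called gene it adds no separate evidence. Every adjusted p of a single gene is from this edgeR fit, and SE is the standard error of its log2 fold change.

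The counts of all 68 genes together made up between 0.475% and 0.486% of a not treated library and between 0.731% and 0.748% of a maltonis-treated one. On the scaled level, the genes other than the pump summed to 3473 ± 76.5 CPM (SD, n = 3) without treatment and 5254 ± 62.4 CPM (SD, n = 3) with maltonis, and the pump to 1547 ± 43.9 and 1821 ± 20.2 CPM. In bulk libraries, a change in every cell and a change in some of the cells cannot be told apart. Batch A gave a median log2 difference over the 61 genes of 0.49, and batch B one of 0.57.

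**Figure D1:**
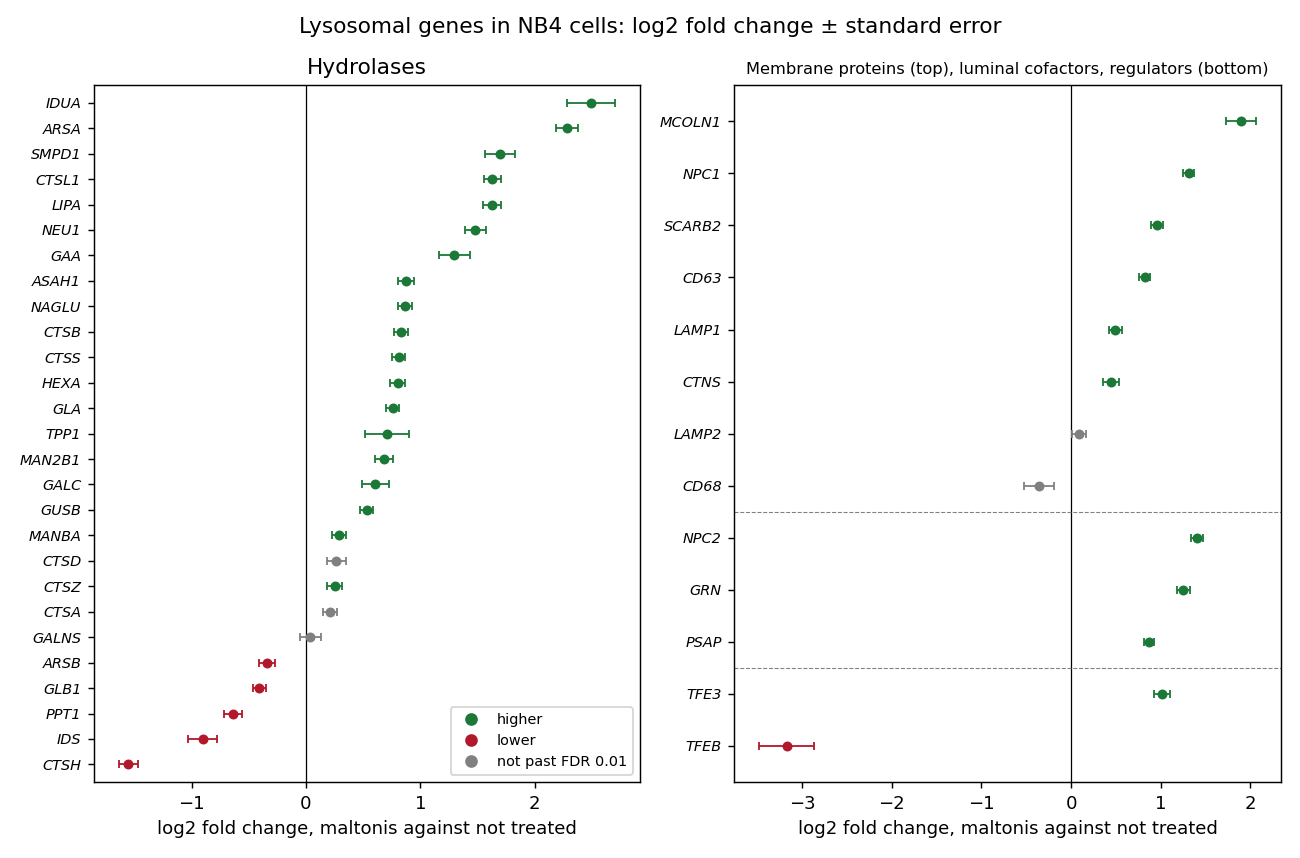
Log2 fold change (x axis) of each tested hydrolase (left) and of the membrane proteins, cofactors and regulators (right), with bars for the standard error of the fit on 3 libraries per group. Green genes were higher and red genes lower at an FDR under 0.01, with IDUA at 2.50 and TFEB at −3.17 as the ends.

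The MiT/TFE regulators moved in opposite directions. TFEB, regarded as the chief activator of lysosome biogenesis, stood at 3.41, 3.12 and 2.74 CPM in not treated libraries and at 0.516, 0.149 and 0.426 CPM in maltonis-treated ones. All maltonis-treated libraries lay below all controls, at 10, 5 and 12 counts against 64, 113 and 91. Its log2 fold change was −3.17 (SE 0.306 and adjusted p = 1.86e-05). TFE3, its paralog with overlapping targets, rose from 30.7, 31.1 and 29.9 CPM to 69.5, 59.7 and 55.8 CPM. The groups did not overlap, and the log2 fold change was 1.01 (SE 0.0893 and adjusted p = 1.10e-05). In batch A the log2 differences, on the log2(CPM + 1) scale that understates low genes, were −1.54 for TFEB and 1.16 for TFE3, and in batch B −1.61 and 0.90.

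The other family members are not on the list of 41 but belong to the same dimerizing family. MITF, known for melanocytes, osteoclasts and mast cells, fell from 0.692, 1.10 and 1.33 CPM to 0.0516, 0.119 and 0.142 CPM, with 9 counts left over the 3 maltonis-treated libraries. TFEC, a member described mainly in the myeloid lineage, had 2, 1 and 0 counts in not treated libraries and 80, 128 and 110 counts after maltonis. The ratio of its summed counts per scaled library was 115 (95% exact interval 39.1 to 562, counting error only). Both were called (MITF adjusted p = 0.000101, TFEC adjusted p = 7.80e-07).

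Per length of transcript, TFE3 held most of the family's RNA in both states. RPKM here is the CPM per kilobase of RefSeq-linked exons. TFE3 stood between 8.75 and 9.12 RPKM in not treated and between 16.3 and 20.4 RPKM in maltonis-treated libraries, or 87.0% to 88.0% and 95.6% to 96.5% of the summed RPKM of the 4 factors. TFEB contributed 9.80% to 11.7% without treatment and 0.292% to 0.885% with it, and TFEC 2.86% to 3.34% with it. The summed level of the 4 factors lay between 9.94 and 10.4 RPKM and between 17.1 and 21.2 RPKM. The log2 ratio of TFE3 to TFEB per length was 3.03 ± 0.138 in not treated and 7.31 ± 0.919 in maltonis-treated libraries (SD, n = 3 each, two-sided exact permutation test p = 0.1, the smallest that 3 libraries against 3 allow).

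**Figure D2:**
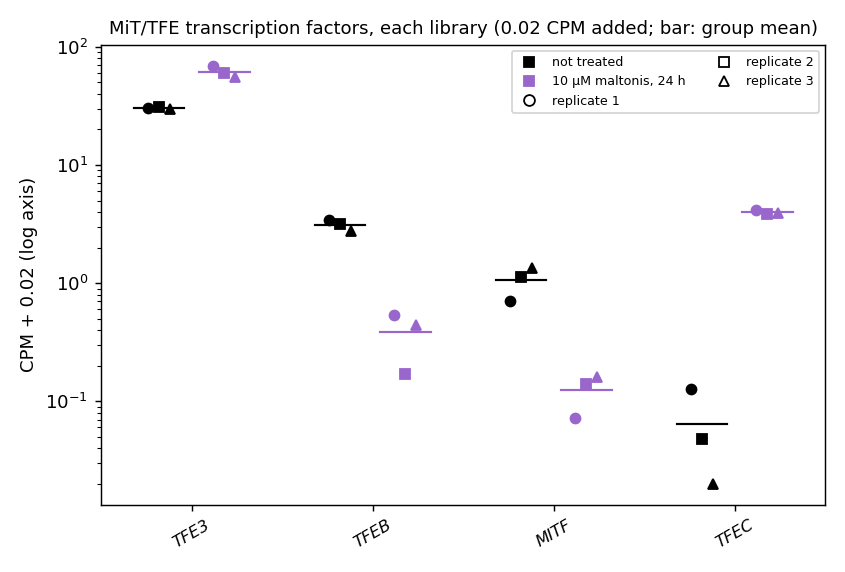
CPM (log y axis, with 0.02 CPM added so that 0 counts can be drawn) of the 4 MiT/TFE factors in each of the 3 not treated (black) and 3 maltonis-treated (lilac) libraries, with a bar at the group mean. TFE3 and TFEC lie higher and TFEB and MITF lower in every maltonis-treated library.

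Hydrolases mostly rose, with 19 higher (70.4%, against 31.9% of all genes) and 5 lower (18.5%, against 32.1%) of 27 tested. Their median log2 fold change was 0.71. The largest rise was that of IDUA, the α-L-iduronidase that removes iduronic acid from heparan and dermatan sulfate, from 1.65, 1.43 and 1.60 CPM to 11.4, 6.98 and 8.27 CPM. Its log2 fold change was 2.50 (SE 0.209 and adjusted p = 7.76e-06). All maltonis-treated libraries lay above all controls. ARSA, the sulfatase of sulfatides, stood at 8.68, 8.72 and 7.27 CPM in not treated and at 42.2, 39.5 and 38.0 CPM in maltonis-treated libraries, a log2 fold change of 2.28 (SE 0.0955 and adjusted p = 1.73e-07). SMPD1, the acid sphingomyelinase, moved from 4.58, 5.08 and 3.83 CPM to 16.1, 14.3 and 13.5 CPM. Its log2 fold change was 1.70 (SE 0.129 and adjusted p = 4.48e-06). CTSL1, the cysteine protease cathepsin L, went from 9.18 ± 0.388 to 28.4 ± 0.928 CPM (SD, n = 3), and LIPA, the acid lipase of cholesteryl esters and triglycerides, from 63.3, 68.7 and 67.8 CPM to 184, 215 and 219 CPM. Both had a log2 fold change of 1.63, with adjusted p-values of 3.16e-07 and 3.73e-07, and none of these 5 genes overlapped between groups.

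NEU1, the sialidase, and GAA, the acid α-glucosidase of glycogen, came next, at 1.48 and 1.30 on the log2 scale (adjusted p = 1.08e-06 and 3.31e-05). Enzymes of sphingolipid breakdown were spread widely. ARSA and SMPD1 were at the top, ASAH1 (acid ceramidase), HEXA (a β-hexosaminidase subunit), GLA (α-galactosidase A) and GALC (galactosylceramidase) rose by 0.87, 0.80, 0.76 and 0.61 on the log2 scale, and GLB1 (β-galactosidase) fell by 0.41. Enzymes of glycosaminoglycan breakdown were as mixed: IDUA, NAGLU (0.86) and GUSB (0.53) were higher, GALNS was at 0.04 (adjusted p = 0.714), and IDS and ARSB were lower. MAN2B1, the lysosomal α-mannosidase, rose by 0.68. The 19 hydrolases that were higher had a median log2 fold change of 0.83, and 7 of them were beyond 1.

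Cathepsins were called in both directions. CTSB and CTSS, cysteine proteases, rose by 0.83 and 0.81 on the log2 scale, while CTSH, an aminopeptidase of the same class, had the largest fall of any hydrolase listed. It stood at 211, 189 and 175 CPM in not treated and at 67.3, 61.3 and 67.2 CPM in maltonis-treated libraries, a log2 fold change of −1.55 (SE 0.0822 and adjusted p = 5.46e-07). Per length, CTSH was the most abundant of the 28 hydrolases without treatment, at 87.5 RPKM, and stood at 29.8 RPKM with maltonis. With the length of all annotated exons in place of the RefSeq-linked ones it was at 32.5 RPKM, below CTSD at 48.1 RPKM. CTSD, the main aspartic protease, went from 141, 163 and 147 CPM to 197, 177 and 169 CPM (log2 fold change 0.27, adjusted p = 0.0147), and CTSA, the protective protein of NEU1 and GLB1, was at 0.21 (adjusted p = 0.0126). Neither was past the threshold, although under the replicate block, a fit that pairs equal replicate numbers, their adjusted p-values were 0.00681 and 0.00809, and with total counts 0.00189 and 0.00138.

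Among the other hydrolases that fell, PPT1, the thioesterase that removes palmitate from proteins, stood at 209, 238 and 236 CPM in not treated and 134, 147 and 157 CPM in maltonis-treated libraries. Its log2 fold change was −0.64 (SE 0.0788 and adjusted p = 8.83e-05). IDS, the iduronate sulfatase that acts before IDUA on the same glycans, stood at 10.2 ± 1.31 and 5.43 ± 0.489 CPM (SD, n = 3) and fell by 0.90 on the log2 scale (SE 0.129 and adjusted p = 0.000224). GLB1 and ARSB fell less, from 87.5 ± 1.99 to 66.1 ± 1.76 CPM and from 91.2 ± 3.69 to 72.1 ± 4.61 CPM (SD, n = 3), with adjusted p-values of 0.000189 and 0.00177. The call of ARSB was lost with total counts as the only scaling (adjusted p = 0.0211). SGSH, the heparan sulfamidase, had at most 1 count in any library and was not tested, and since the annotation used for counting is not named, what this low count stands for is not known. IDS has a near-identical pseudogene, and exons of PPT1 and CTSA overlap those of neighbors on the opposite strand over 29.7% and 33.5% of their length, so their counts are uncertain where counting split or shared reads. The same holds for ATP6V1C2, over 31.9% of its length, and ATP6V1D, over 13.7%.

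Some rises lost their call when 1 library was left out. CTSZ (0.25) lost its call when any single library was left out, with adjusted p-values from 0.0161 to 0.0402. TPP1 (0.71), whose controls ranged from 23.4 to 41.5 CPM, lost it without not treated replicates 1 or 2 or any maltonis-treated replicate (0.0120 to 0.0489). MANBA (0.29) lost it without not treated replicate 2 or maltonis replicates 2 or 3 (0.0117 to 0.0172).

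**Figure D3:**
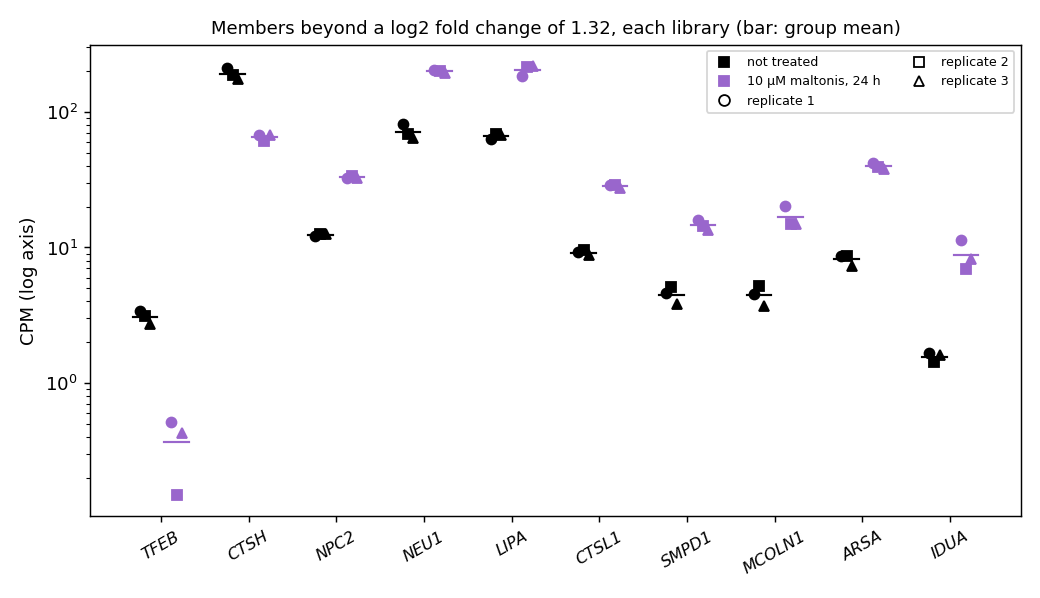
CPM (log y axis) of the 10 lysosomal genes with an FDR under 0.01 and a fold change beyond the study's limit, in each not treated (black) and maltonis-treated (lilac) library, with a bar at the group mean. TFEB and CTSH are lower and the other 8 genes higher in all 3 maltonis-treated libraries.

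The 3 luminal cofactor proteins of the list were all higher. Of 4 other luminal cofactor proteins tested beside them, 2 were higher and 1, EPDR1, was lower (log2 fold change −1.55). Over all genes tested, 31.9% were higher and 32.1% lower. PSAP, the precursor of the saposins that present sphingolipids to their hydrolases, was the most abundant gene per length of the whole set and rose from 170 to 310 RPKM. Its libraries stood at 478, 499 and 487 CPM and at 906, 871 and 896 CPM (log2 fold change 0.87, adjusted p = 1.19e-06). GRN, which encodes progranulin, went from 205, 230 and 222 CPM to 559, 521 and 488 CPM, a log2 fold change of 1.25 (adjusted p = 8.92e-07). In the order of levels per length among 66 genes with a length, GRN moved from place 5 to place 2. NPC2, the luminal cholesterol carrier, rose from 12.1, 12.5 and 12.6 CPM to 32.5, 33.8 and 32.5 CPM (log2 fold change 1.41, adjusted p = 3.77e-07).

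Of the 8 membrane proteins, 6 were higher (75%, against 31.9% of all genes) and none lower (against 32.1%), with a median log2 fold change of 0.66. MCOLN1, the calcium release channel TRPML1, rose from 4.53, 5.19 and 3.68 CPM to 20.1, 15.0 and 14.9 CPM, a log2 fold change of 1.89 (SE 0.167 and adjusted p = 1.10e-05). NPC1, which receives cholesterol from NPC2 and exports it, stood at 54.3 ± 2.82 CPM in not treated and at 135 ± 2.84 CPM in maltonis-treated libraries (SD, n = 3), with a log2 fold change of 1.31 (adjusted p = 2.98e-07). SCARB2, a sorting receptor of the lysosomal membrane, and CD63, a tetraspanin, rose by 0.96 and 0.82 on the log2 scale. Groups did not overlap for any of these genes.

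LAMP1 and LAMP2 are the abundant structural glycoproteins of the membrane. LAMP1 rose from 285, 343 and 316 CPM to 441, 436 and 449 CPM (log2 fold change 0.49, adjusted p = 0.000285). LAMP2 was at 242, 280 and 278 CPM in not treated and 263, 295 and 292 CPM in maltonis-treated libraries, so that the groups overlapped (log2 fold change 0.09, adjusted p = 0.324). CTNS, the cystine exporter, rose by 0.44 (adjusted p = 0.00202), a call lost without not treated replicate 2 (adjusted p = 0.0137). CD68, a glycoprotein used as a macrophage marker, had a log2 fold change of −0.36 (adjusted p = 0.0770, or 0.00299 under the replicate block). Per length and without treatment, LAMP1 stood at 116 RPKM, the second place among the 66 genes, or place 7 with the length of all annotated exons, and LAMP2 at 48.2 RPKM.

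Markers of monocytes and macrophages, cells rich in lysosomes, were measured beside these rises. Of 12 such genes, MRC1 and MSR1 had 0 counts in every library, CD163 and FCGR3A had at most 2, and 6 were above 1 CPM in each group. Their summed level lay between 75.7 and 84.7 CPM without and between 42.8 and 45.2 CPM with maltonis. Of the 7 that were tested, 2 were lower, CD4 among them, and none was higher. Over all genes tested, 32.1% were lower and 31.9% higher. The other 5 tested markers were not past the threshold, and log2 fold changes of the 7 ran from −2.34 to 0.97.

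The proton pump had 9 genes higher (42.9%, against 31.9% of all genes) and 3 lower (14.3%, against 32.1%) of 21 tested. Its median log2 fold change was 0.21, and no pump gene was beyond the study's fold limit. In V1, the ATP-hydrolyzing part, 6 of 11 tested genes were higher, 1 was lower and the median was 0.54. In V0, the membrane part, 2 of 7 were higher and 2 were lower, close to the shares over all genes, and the median was 0.08. Summed over V1 genes, libraries stood between 641 and 658 CPM without and between 864 and 922 CPM with maltonis, whereas the V0 sums of 651 to 711 CPM and 680 to 719 CPM overlapped.

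The catalytic subunit gene ATP6V1A stood at 98.1, 110 and 112 CPM in not treated and at 173, 194 and 203 CPM in maltonis-treated libraries, with a log2 fold change of 0.83 (SE 0.0800 and adjusted p = 1.85e-05). ATP6V1E1, a stalk subunit, rose from 63.7, 64.5 and 61.3 CPM to 109, 108 and 117 CPM, with a log2 fold change of 0.82 (adjusted p = 3.17e-06). For ATP6V1B2, the nucleotide-binding partner of subunit A, the libraries moved from 90.8, 91.7 and 98.5 CPM to 141, 154 and 161 CPM (log2 fold change 0.70, adjusted p = 2.05e-05). ATP6V1H and ATP6V1D rose by 0.62 and 0.54. ATP6V1G1, another stalk subunit, fell from 106, 107 and 99.0 CPM to 85.4, 86.0 and 88.3 CPM (log2 fold change −0.27, adjusted p = 0.00279), a call lost without not treated replicate 2 or maltonis replicate 2 (adjusted p = 0.0157 and 0.0104) and with total counts or the upper quartile as scaling (0.0431 and 0.0199). ATP6V1C1 was at 103 ± 1.06 and 108 ± 1.16 CPM (SD, n = 3, adjusted p = 0.213, or 0.00902 with total counts), and ATP6V1F at a log2 fold change of 0.24 (adjusted p = 0.0603, with the replicate block 0.00510, and 0.00870 without not treated replicate 1).

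In V0, the gene of the proteolipid subunit c'', ATP6V0B, was the third most abundant gene per length without treatment, at 108 RPKM, or at place 4 with all annotated exons. Its libraries stood at 238, 224 and 205 CPM and at 238, 230 and 237 CPM, with overlap (adjusted p = 0.289). ATP6V0C, the main proteolipid, overlapped too, at 46.8, 49.6 and 40.4 CPM and 64.7, 41.8 and 38.6 CPM. Batch A gave a log2 difference of 0.46 and batch B one of −0.16, the widest gap between batches among the 61 genes. ATP6V0D1, which couples V0 to the rotor, rose by 0.30 (adjusted p = 0.00152, and 0.0123 without maltonis replicate 2). ATP6V0E1 and ATP6V0E2, small membrane subunits, fell from 93.9 ± 1.43 to 66.9 ± 4.22 CPM and from 30.5 ± 3.05 to 22.4 ± 1.22 CPM (SD, n = 3), with log2 fold changes of −0.49 and −0.44 and adjusted p-values of 0.000138 and 0.00206. The fall of ATP6V0E2 was not past the threshold with total counts as the only scaling (adjusted p = 0.0122). Of the accessory genes, ATP6AP1 was at 0.21 (adjusted p = 0.00900), lost without any single library (0.0208 to 0.0434), and ATP6AP2 at 0.12 (adjusted p = 0.139, or 0.00577 in batch B alone).

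**Figure D4:**
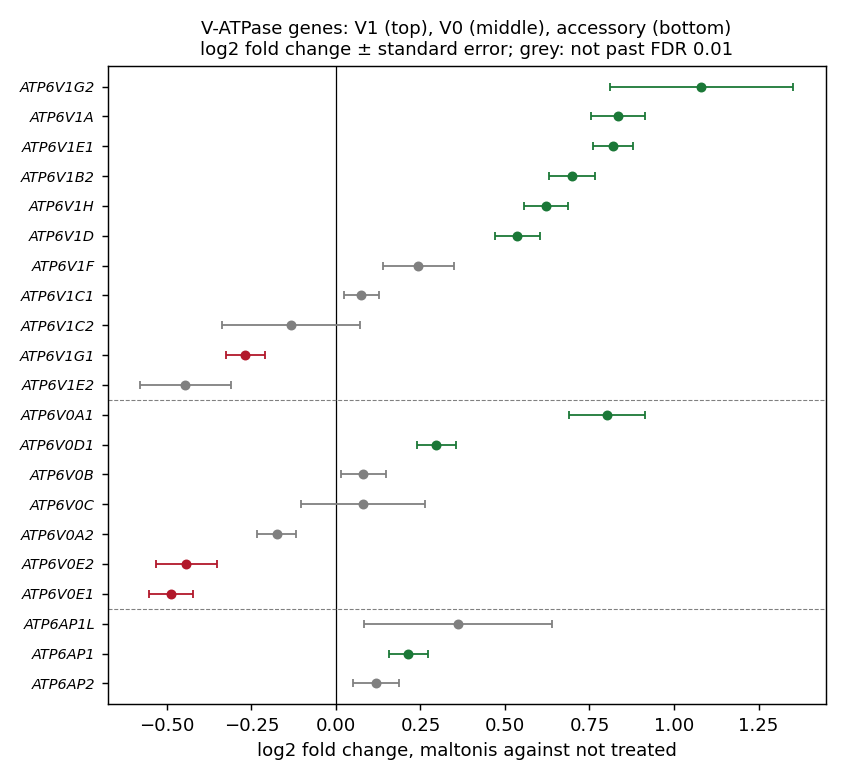
Log2 fold change (x axis) of the 21 tested V-ATPase genes with bars for the standard error of the fit, ordered within V1, V0 and accessory genes. Green genes were higher, red genes lower and grey genes not past an FDR of 0.01, and 6 of the 9 green genes are V1 genes.

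Several subunits have alternative genes, whose use directs the pump to different membranes and cell types. Of the subunit a genes, ATP6V0A1 rose from 22.0, 18.1 and 19.8 CPM to 40.1, 32.2 and 32.2 CPM (log2 fold change 0.80, adjusted p = 0.000203), while ATP6V0A2 went from 147, 138 and 135 CPM to 120, 128 and 124 CPM (−0.18, adjusted p = 0.0242, not past the threshold). Per length, ATP6V0A1 stood at 0.205 to 0.233 of ATP6V0A2 in not treated and at 0.391 to 0.520 of it in maltonis-treated libraries. The shift of 0.97 in the log2 ratio had a two-sided exact permutation p = 0.1, the smallest possible here. ATP6V0A2 remained the more abundant of the pair in every library.

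For subunit E, the ratio of ATP6V1E1 to ATP6V1E2 per length rose from between 10.2 and 13.1 to between 24.3 and 29.5 (exact permutation p = 0.1). ATP6V1E2 itself went from 6.92, 5.46 and 6.15 CPM to 5.01, 4.08 and 4.51 CPM (log2 fold change −0.44, adjusted p = 0.0145, and 0.00461 with the replicate block). ATP6V1G2, mostly a neuronal form of subunit G, rose from 0.934 ± 0.315 to 1.93 ± 0.349 CPM (SD, n = 3) (adjusted p = 0.00589), a call lost without not treated replicate 2 or maltonis replicates 2 or 3 (0.0214 to 0.0327). ATP6V1G1 exceeded it per length by 118 to 261 times without and by 58.2 to 81.3 times with maltonis (exact permutation p = 0.1). Exons of ATP6V1G2 overlap those of the readthrough ATP6V1G2-DDX39B on the same strand over 12.9% of their length. The counts of ATP6V1G2 and this ratio are therefore uncertain where counting split or shared reads. The ratio of ATP6V0E1 to ATP6V0E2 did not separate the groups, at 5.49 to 6.51 and 5.11 to 6.29 (exact permutation p = 0.7). That of ATP6V1C1 to ATP6V1C2 ranged from 21.2 to 24.6 and from 22.3 to 37.9 (exact permutation p = 0.6). These are 5 of 6 ratios computed, the other being that of TFE3 to TFEB, and no adjusted value can fall below 0.1.

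Forms of kidney, osteoclast or other specialized cells were at the floor: ATP6V0A4, ATP6V0D2 and ATP6V1B1 had at most 2 counts in any library, and ATP6V1G3 and the pseudogene ATP6V0CP3 had 0. The readthrough ATP6V1G2-DDX39B, whose exons lie for 89.9% of their length in DDX39B, had at most 6. ATP6AP1L, at 0.364 and 0.478 CPM on average, was not past the threshold (adjusted p = 0.328).

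Other genes of lysosome biology, from 6 lists written by hand, were tested beside them: 83 of 192 were higher (43.2%, against 31.9% of all genes) and 45 lower (23.4%, against 32.1%), with a median log2 fold change of 0.20. Other hydrolases were higher in 12 of 26 and lower in 6. HYAL1, a hyaluronidase, rose from 0.426, 0.331 and 0.271 CPM to 2.01, 1.64 and 1.28 CPM (log2 fold change 2.28). NAAA, an acid amidase, fell from 20.2, 18.2 and 16.6 CPM to 2.63, 2.30 and 2.20 CPM (−2.95, adjusted p = 1.75e-07), and GGH, the γ-glutamyl hydrolase of folates, from 58.8, 62.2 and 57.7 CPM to 10.8, 12.3 and 13.6 CPM (−2.28). Other membrane proteins were higher in 14 of 29, led by PQLC2 (1.74), an exporter of cationic amino acids, and lower in 6, led by LAPTM4B (−1.93).

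Genes that deliver enzymes to the lysosome were higher in 7 of 19 (36.8%, against 31.9% of all genes) and lower in 4 (21.1%, against 32.1%). The phosphotransferase that makes the mannose 6-phosphate tag was split: GNPTAB, its catalytic precursor, fell from 91.6 ± 3.42 to 48.2 ± 0.972 CPM (SD, n = 3, adjusted p = 1.58e-06), and GNPTG, its γ subunit, rose from 14.3 ± 1.58 to 33.6 ± 1.82 CPM (SD, n = 3, adjusted p = 4.97e-06). NAGPA, the uncovering enzyme, rose by 0.79, and CLN6 fell by 0.49, while the receptor M6PR fell by 0.36 on the log2 scale and IGF2R was at 0.08 (adjusted p = 0.651). Factors of pump assembly included VMA21, at −0.64, and ROGDI, at 1.30, with 6 of 9 genes higher and 2 lower, among them NCOA7 at 0.97 and DMXL2 at −0.84.

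Autophagy genes were higher in 16 of 39 (41.0%, against 31.9% of all genes) and lower in 7 (17.9%, against 32.1%). GABARAPL1, an ATG8 protein of the autophagosome, rose from 11.6, 11.3 and 11.3 CPM to 67.5, 65.0 and 66.1 CPM. Its log2 fold change was 2.54 (adjusted p = 2.54e-08). ATG4A, a protease of ATG8 proteins, followed at 2.08. Of its paralogs, ATG4D rose by 0.88, while ATG4B (−0.14) and ATG4C (−0.33) were not past the threshold. ULK2, a kinase of the initiation complex, had the largest fall, at −2.19 (adjusted p = 2.28e-05), followed by OPTN, an autophagy receptor, at −1.13. Genes of nutrient sensing at the lysosome, a list that also holds MITF and TFEC, were higher in 15 of 34 (44.1%, against 31.9% of all genes) and lower in 11 (32.4%, against 32.1%). DEPDC5, a brake on mTORC1 through the GATOR1 complex, was at 1.51, and PPP3CB, a catalytic subunit of the phosphatase calcineurin, fell from 41.1, 49.2 and 54.9 CPM to 12.9, 14.2 and 14.9 CPM (log2 fold change −1.79, adjusted p = 1.71e-06). Tethering and lysosome-related organelle complexes were higher in 11 of 32 (34.4%, against 31.9% of all genes) and lower in 8 (25%, against 32.1%), with RAB38 at 1.08, VPS33A at 0.75, VPS41 at −1.59 and SNAPIN at −2.94.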

How the data were processed

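RNA-seq of NB4 cells covered 3 not treated and 3 maltonis-treated libraries. The authors deposited whole-number HTSeq counts per gene symbol, not normalized. TopHat, Bowtie2 and hg19 are named in the submitters' processing notes, while versions, the annotation and the strand setting of the counting are not given in the sources used here. Counts were scaled with TMM, filtered with filterByExpr and tested in edgeR 4.0.16 (R 4.3.3) without covariates. Standard errors were derived from the unshrunken coefficient and the F statistic. The study's RPKM criterion was not applied. RPKM used exons of RefSeq-linked transcripts in GENCODE version 29 (GRCh38), and all exons as an alternative added after seeing the data. The genes, lists and motifs were chosen with earlier results of these data known. Values per library follow a rule: the largest rises and falls per class (up to 5 each), regulators, the highest levels and paralogous subunits. NEU1, GAA, CTSD, LAMP2 and others were described after their values were seen.

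Same-numbered libraries deviated together (correlations of 0.458, 0.170 and 0.248 for replicates 1, 2 and 3 on log2(CPM + 1)), which pairs them by the rule used, although not treated replicate 2 with maltonis replicate 3 gave 0.250 and not treated replicate 3 with maltonis replicate 2 gave 0.286. Replicates differed by more than sampling noise (chi-square per degree of freedom from 4.15 to 33.1). Alternatives covered scaling, DESeq2 1.42.0, the filter, the block, the batch and each library left out, and the test was run on simulated data. Ratios and figures used Python 3.11.15 with scipy 1.17.1 and matplotlib 3.10.9. Promoter windows are those of RefSeq on GRCh38.p14. ChIP-seq data were not analysed here. Some genes of the lists are not reported here.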

Additional observations from a re-analysis of the deposited data

How the results depend on the processing

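Across scaling, test, filter, block, batch and left-out libraries, the lysosomal genes called higher ranged from 36 to 41 (32 to 36 with 1 library left out) and those called lower from 6 to 11 (8 to 9). Hydrolases gave 17 to 21 higher (16 to 18) and 4 to 5 lower, and the other lysosomal genes 82 to 98 higher (74 to 87) and 34 to 54 lower (35 to 49). Pump genes called lower numbered 1 with total counts and 5 at an FDR under 0.05, against 3 (2 to 3 with a library left out). Membrane proteins called lower numbered 1 (CD68) with the replicate block, with the batch as a covariate and in batch B alone, the last chosen after seeing the data, against 0. The replicate block added 5 calls among single genes (CTSA, CTSD, CD68, ATP6V1E2 and ATP6V1F) and removed none, with no other call changed among the 61 genes. Of 854 values of single genes under an alternative, 36 lost and 19 gained a call, over 17 of 61 genes, and no called direction turned. Total counts moved the median log2 fold change of all genes to 0.13 and that of the lysosomal genes to 0.65. TFEB stayed between −3.47 and −2.74. Counting error limits the genes at the floor, among them the controls of TFEC.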
